A study of Mus musculus with 5 samples.

Results

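SUZ12 peaks centred between 1 and 5 kb downstream of a gene's transcription start site are described here, in chromatin immunoprecipitation sequencing (ChIP-seq) libraries from mouse embryonic stem cells (ESCs). The members were chosen by their measured position alone: a peak had to be linked within 5000 bp to exactly 1 gene symbol, at a signed distance over +1000 bp and up to +5000 bp, where a positive sign means downstream. In all, 3234 of the 9793 listed peaks met the rule, 674 of 1893 in the library labelled GFP, 835 of 2671 in WT, 981 of 2986 in deltaMBD and 744 of 2243 in deltaCC. All 4 cultures were male 129SV ESCs with the Mbd3 gene knocked out, grown with LIF in conventional medium, and each gave 1 library. They differed in what the knockout cells carried. Since the labels give only the names GFP and WT, the first is taken to mean no MBD3 and the second the full-length protein, while the design text describes the other forms as MBD3a without its methyl-CpG-binding domain (deltaMBD) or without its coiled-coil domain (deltaCC). How the constructs were expressed, and whether a culture was 1 clone, is not given in the sources used here. An input library from cells labelled EBRTcH3 was not analysed here.

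SUZ12 is needed to assemble PRC2, a Polycomb complex that methylates lysine 27 of histone H3 and in ESCs occupies CpG-rich regions of silent developmental genes. MBD3 belongs to NuRD, a complex that couples nucleosome remodelling to histone deacetylation. Polycomb domains often extend from the start site into the gene, and a peak caller can report such a domain as 1 broad peak or as several. The deposited tables give each peak's distance from a start site and no height, width, coordinate, p-value or read number, so the strength of a peak and the sequencing depth are unknown.

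Downstream centres were also listed at genes without a peak centred within 1 kb of the start site. Peak widths are not given, so such a peak may still reach the start. At 10 genes each of the 4 libraries listed exactly 1 peak, and all 4 were downstream members. The start-site regions of 4 of these genes are shown because no library listed a SUZ12 peak centred within 1 kb of the start that the deposited tables used. Each runs from 250 bases before to 50 bases after the start (RefSeq, GRCm38.p6, 300 bases, 5′ to 3′ on the gene's strand), with every CG dinucleotide in capitals. They lie on chr13:112580613-112580912 (Il31ra, minus strand), chr14:32465860-32466159 (Chat, minus strand), chr14:84443313-84443612 (Pcdh17, plus strand) and chr4:95052173-95052472 (Jun, minus strand).
Il31ra: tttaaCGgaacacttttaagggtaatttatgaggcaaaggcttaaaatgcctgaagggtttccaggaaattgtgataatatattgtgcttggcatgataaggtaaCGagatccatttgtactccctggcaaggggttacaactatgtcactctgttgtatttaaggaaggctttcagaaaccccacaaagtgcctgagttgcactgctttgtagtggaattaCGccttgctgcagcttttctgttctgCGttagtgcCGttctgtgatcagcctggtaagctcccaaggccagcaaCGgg
Chat: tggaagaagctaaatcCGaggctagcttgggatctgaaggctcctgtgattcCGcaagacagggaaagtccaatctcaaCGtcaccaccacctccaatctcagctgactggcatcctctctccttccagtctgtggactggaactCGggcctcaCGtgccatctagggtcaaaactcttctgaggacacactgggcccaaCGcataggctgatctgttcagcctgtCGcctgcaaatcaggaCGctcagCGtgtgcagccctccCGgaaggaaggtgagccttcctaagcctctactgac
Pcdh17: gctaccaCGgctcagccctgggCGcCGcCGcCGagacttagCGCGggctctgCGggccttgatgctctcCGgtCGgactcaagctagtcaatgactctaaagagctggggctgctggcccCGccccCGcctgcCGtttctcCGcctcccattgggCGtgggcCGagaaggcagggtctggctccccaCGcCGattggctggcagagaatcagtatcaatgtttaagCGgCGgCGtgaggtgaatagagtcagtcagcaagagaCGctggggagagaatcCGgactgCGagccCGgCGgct
Jun: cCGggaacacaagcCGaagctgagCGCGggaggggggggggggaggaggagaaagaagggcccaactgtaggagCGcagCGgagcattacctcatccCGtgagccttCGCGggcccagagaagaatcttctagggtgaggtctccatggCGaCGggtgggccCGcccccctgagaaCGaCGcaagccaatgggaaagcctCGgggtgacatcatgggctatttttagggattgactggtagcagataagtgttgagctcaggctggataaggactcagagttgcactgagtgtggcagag
The CG count was 6 at Il31ra, 10 at Chat, 15 at Jun and 26 at Pcdh17. Over the 32851 start-site regions of the table, the median count was 7, with quartiles of 3 and 20, and 94.6% held at least 1 CG. These regions are not the peaks, which were centred 1006 bp or more into the gene, and the RefSeq start need not be the one used in the tables.

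At Il31ra, which encodes a receptor subunit for interleukin 31, the only peak was centred at +2424 bp (GFP), +2425 bp (WT), +2421 bp (deltaMBD) and +2413 bp (deltaCC), a span of 12 bp. No other gene of the 10 came close to this agreement. Chat (choline acetyltransferase) had its peak at +1898, +2121, +2235 and +1795 bp in the same order of libraries, a span of 440 bp. The peak of Elovl3, a fatty acid elongase, was listed at +4381, +4481, +4875 and +4687 bp. The adhesion protein gene Pcdh17 had +2364, +2577, +2187 and +2071 bp. These 3 genes thus had 1 centre each in a stretch of 440 to 506 bp. Gata6, a transcription factor of the endoderm, had a centre at +1619, +1756, +1143 and +1515 bp. Jun, a subunit of the AP-1 transcription factor, had one at +1690, +1501, +1006 and +1289 bp. Tmem151b, a transmembrane protein gene, had +4047, +3459, +4221 and +3709 bp, and Mllt3, a reader of acylated histones, had +2025, +1602, +1150 and +1207 bp. At Gata6, Jun and Mllt3 the deltaMBD centre was the one nearest the start site, and at Chat, Elovl3 and Tmem151b it was the farthest. The span was at most 1000 bp at 9 of the 10 genes, with a median of 648.5 bp and a maximum of 1831 bp.

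The position profile had the same shape in all 4 libraries: members were densest next to the inner limit and thinned out with distance, with no separate maximum downstream. Of the GFP members, 229 of 674 (34.0%) lay in the first 500 bp of the range, up to +1500 bp, and 44 in the last 500 bp, beyond +4500 bp. In WT these bins held 274 (32.8%) and 39 of 835, in deltaMBD 321 (32.7%) and 36 of 981, and in deltaCC 240 (32.3%) and 55 of 744. The members are therefore the outer flank of a distribution whose fullest 250 bp bin ended at +750 bp in GFP and WT, at +500 bp in deltaCC, and was shared by both of these bins in deltaMBD. The median distance was +1933 bp in GFP (interval 1823 to 2096), +1928 bp in WT (1804 to 2054), +1928 bp in deltaMBD (1845 to 2034) and +2067 bp in deltaCC (1919 to 2178). All intervals here are exact 95% binomial intervals over peaks or genes, which cover counting error and not the spread between cultures. Those over peaks treat the peaks of a gene as independent and can be too narrow. The intervals of these medians overlap.

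**Figure D1:**
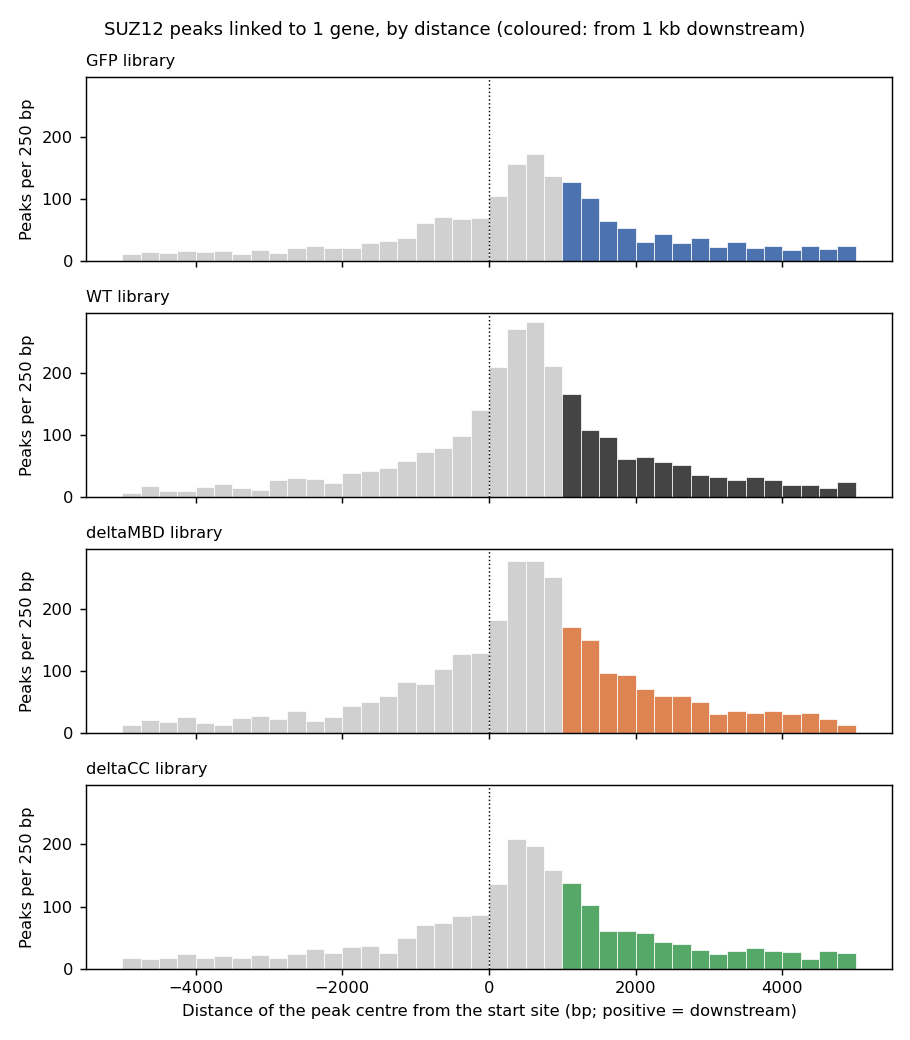
Number of peaks linked to 1 gene (vertical axis, per 250 bp bin) by distance of the peak centre from the start site (horizontal axis, bp) in each library, with members in colour and other peaks in grey. In each panel the coloured bars continue the flank of a maximum that lies within 1 kb downstream of the start site.

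Downstream members were more numerous than the mirror-image class centred 1 to 5 kb upstream in every library. There were 674 against 319 in GFP, a ratio of 2.11, and 835 against 403 in WT, a ratio of 2.07. The ratio was 1.98 in deltaMBD (981 against 495) and 1.86 in deltaCC (744 against 399). The ratio was higher in the first 500 bp of the range than in the last: in GFP it was 3.23 and 1.69, and in deltaCC 3.16 and 1.67. In WT it was 2.63 and 1.70, and in deltaMBD 2.28 and 1.13. It did not fall steadily in between, and in deltaMBD it was highest, at 2.96, from +2000 to +2500 bp. Of the peaks linked to 1 gene, downstream members made up 36.8% in GFP (interval 34.5 to 39.0), 32.1% in WT (30.3 to 34.0), 33.9% in deltaMBD (32.1 to 35.6) and 34.5% in deltaCC (32.4 to 36.5). The GFP interval lay above that of WT and overlapped those of deltaMBD and deltaCC. The share rests on where the limit is set: with members from over +500 bp it was 53.6% in GFP and 51.1% in WT, and with members from over +2000 bp 17.8% and 15.5%.

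Closest to the inner limit were the members at +1003 bp of Nog in GFP, +1002 bp of Gfra2 in WT, +1003 bp of Metrnl in deltaMBD and +1002 bp of Hoxb13 in deltaCC. Just outside it lay peaks at +1000 bp of Adcy8 in GFP, of Pdzrn4 in WT and of Elf2 in deltaMBD, and at +995 bp of Cebpa in deltaCC. The outermost members were at +4994 bp of Rnf220 in GFP, +4971 bp of Bcl11a in deltaMBD and +4998 bp of Pax5 in deltaCC. No link between 5000 bp and 8933951 bp was listed in any library, so a peak that crosses the outer limit disappears from the tables.

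The members belonged to 486 genes in GFP, 665 in WT, 761 in deltaMBD and 549 in deltaCC. Those were 46.2%, 40.0%, 45.4% and 45.0% of the genes listed in each library, in the same order. Most of these genes had a single downstream peak: 352 in GFP, 528 in WT, 579 in deltaMBD and 392 in deltaCC. A further 44, 29, 30 and 34 genes had 3 or more, and no gene had over 5. At about as many genes the downstream peak accompanied a peak at the start site as not. A peak centred within 1 kb of the start site was listed as well at 45.5% of the genes in GFP (interval 41.0 to 50.0), 48.0% in WT (44.1 to 51.8), 55.3% in deltaMBD (51.7 to 58.9) and 54.3% in deltaCC (50.0 to 58.5). Downstream peaks alone were listed at 197 genes in GFP (40.5%), 265 in WT (39.8%), 250 in deltaMBD (32.9%) and 178 in deltaCC (32.4%). For a start-site peak the intervals of GFP and deltaMBD did not overlap, and for downstream peaks alone they met, at 36.1 to 45.1 and 29.5 to 36.3.

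Where a downstream centre followed another centre at the same gene, the median spacing was 1390 bp in GFP (466 gaps), 1668 bp in WT (560), 1472 bp in deltaMBD (718) and 1551 bp in deltaCC (558). Between 23.0% of these gaps, in WT, and 33.5%, in GFP, were 1000 bp or shorter. Peak spacing was thus of the order of the matching window used below, and part of the matches at genes with several peaks can come from this density; its part was not tested.

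Ntf3, the gene of the growth factor neurotrophin 3, and Hoxc4, a homeobox gene of the body axis, had the most downstream peaks, 13 each over the 4 libraries. In GFP the Ntf3 members were centred at +1108, +1720, +2458, +3241 and +3916 bp. WT listed +1066, +2191 and +3767 bp, deltaMBD +2567 and +3858 bp, and deltaCC +1668, +2511 and +3955 bp. A centre between +3767 and +3955 bp was therefore present at Ntf3 in every library, whereas the first 2 kb differed. Hoxc4 had members at +1140 and +3101 bp (GFP), +1150, +2078 and +3902 bp (WT), +1077, +1991 and +3023 bp (deltaMBD), and +1176, +2424, +3343, +4181 and +4880 bp (deltaCC). The first of these lay within 99 bp across the libraries.

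Slitrk5, a transmembrane protein gene of neurons, had 12 downstream peaks in all, and so had Wnt10a, a Wnt ligand. At Wnt10a the single GFP member lay at +2794 bp. WT listed +2473, +3950 and +4704 bp, deltaMBD +1943, +2854, +4159 and +4706 bp, and deltaCC +1606, +2714, +3978 and +4547 bp. The part of Wnt10a beyond +3 kb thus had 2 centres in each of WT, deltaMBD and deltaCC and none in GFP. Slitrk5 had +2487, +3189 and +3918 bp (GFP), +2072 and +4440 bp (WT), +1015, +2100, +2648 and +3824 bp (deltaMBD) and +2026, +2733 and +4826 bp (deltaCC). Every library listed a start-site peak at Slitrk5 as well, between +117 and +701 bp.

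Gm53, a long non-coding RNA gene, Hapln4, a link protein of the brain's extracellular matrix, and Rnf220, a ubiquitin ligase, had 11 downstream peaks each. At Gm53 the outermost centre was +4269 bp (GFP), +4259 bp (WT), +3994 bp (deltaMBD) and +4137 bp (deltaCC). At Hapln4 a centre at +2257, +2425, +2300 and +2237 bp was common to the libraries, and at Rnf220 one at +2344, +2533, +2372 and +2419 bp. These 3 genes thus had at least 1 centre that differed by under 300 bp between the libraries. C1qtnf4, a secreted protein of the C1q and TNF related family, Cntfr, the receptor of ciliary neurotrophic factor, and Dmbx1, a homeobox gene of the brain, had 10 each, as did the potassium channel gene Kcns1. Dmbx1 had 5 of them in deltaMBD, from +1882 to +4821 bp, 2 each in GFP and WT, and 1 in deltaCC, at +4530 bp.

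**Figure D2:**
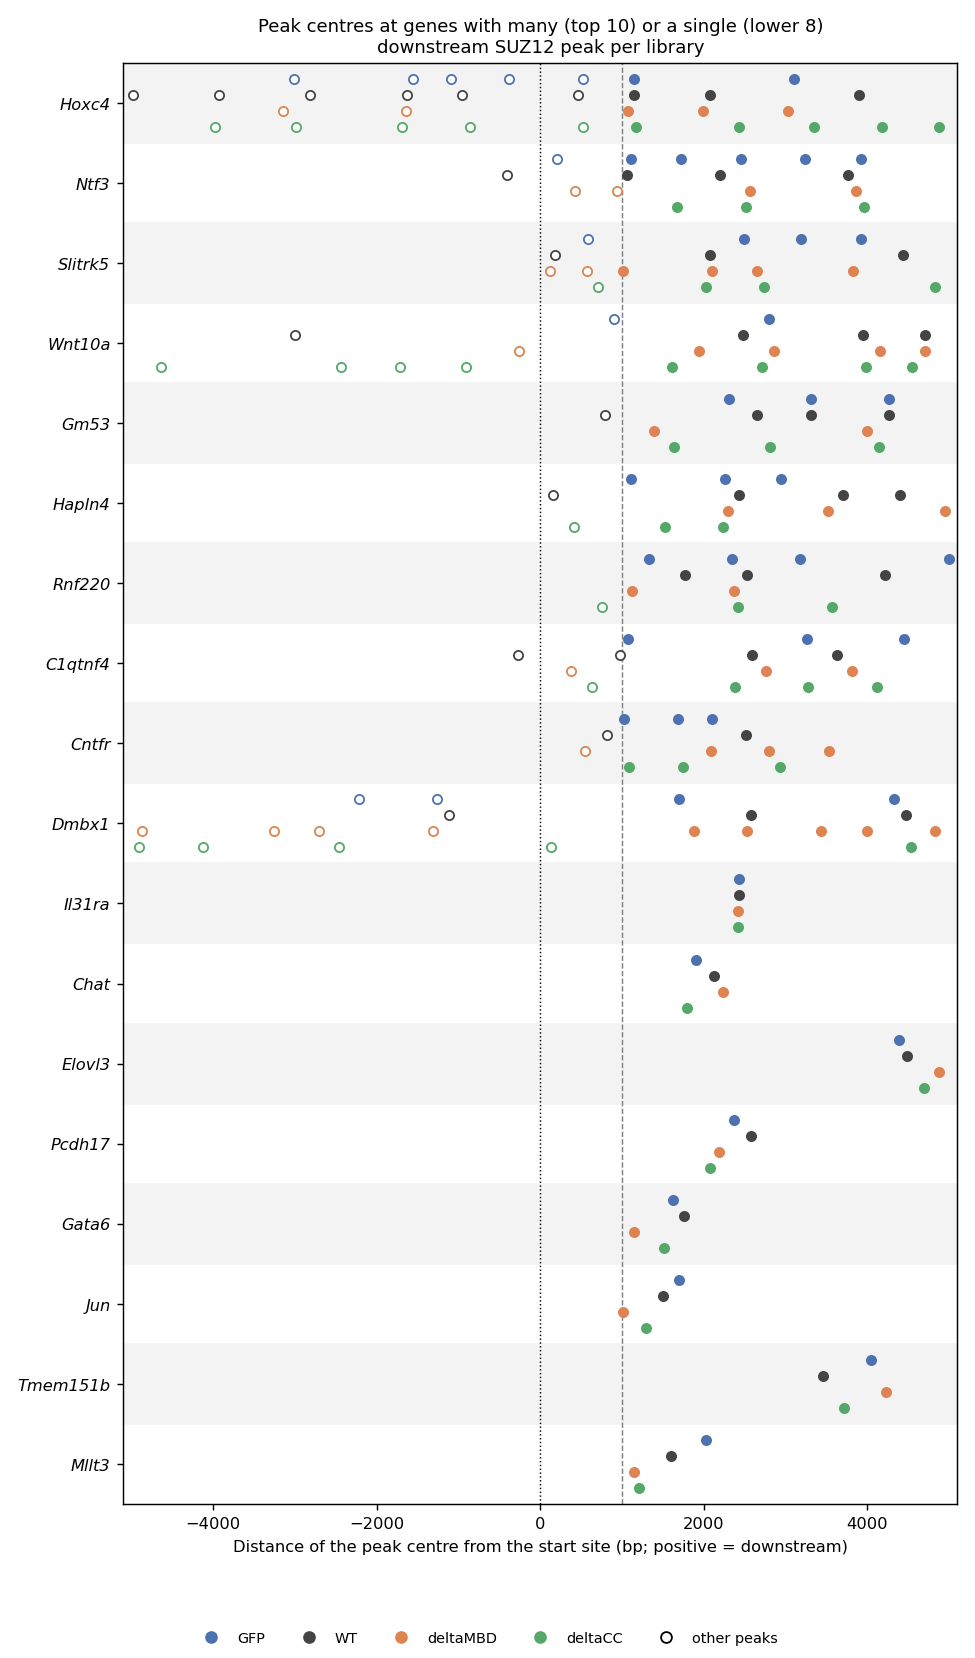
Peak centres by distance from the start site (horizontal axis, bp) at 10 genes with the most downstream peaks (Hoxc4 to Dmbx1, ties in alphabetical order, which leaves out Kcns1) and at 8 genes with a single peak in each library (Il31ra to Mllt3), in colour by library. Filled circles are downstream members and open circles other listed peaks; the 4 Il31ra centres fall on 1 position, at +2413 to +2425 bp.

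A downstream peak was listed at 1115 genes in at least 1 library, which were 57.6% of the 1935 genes listed at any position. The largest set was of 214 genes with a downstream peak in every library. At 131 of these (61.2%) a centre from each library fell in a common stretch of 1000 bp. Next came 175 genes with a downstream peak in deltaMBD alone, 139 in WT and deltaMBD, 108 in WT alone and 68 in every library but GFP. GFP and deltaCC, without the other two, shared 58.

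Of the 1115 genes, 728 (65.3%) had a peak of some position in all 4 libraries, the 214 above included, against 900 (46.5%) of all 1935 listed genes. Among the 175 genes downstream in deltaMBD alone, 60 were listed in every library and 20 in deltaMBD only. Of the 139 of WT and deltaMBD, 45 were listed in every library and 68 in neither GFP nor deltaCC. Of the 58 of GFP and deltaCC, 42 were listed in every library and 12 in neither WT nor deltaMBD. The set of WT and deltaMBD was therefore made up to a larger part of genes without any peak in the remaining libraries than that of GFP and deltaCC. WT and deltaMBD are the longer lists, with 1664 and 1677 genes against 1051 in GFP and 1221 in deltaCC, and the part of list length was not tested.

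**Figure D3:**
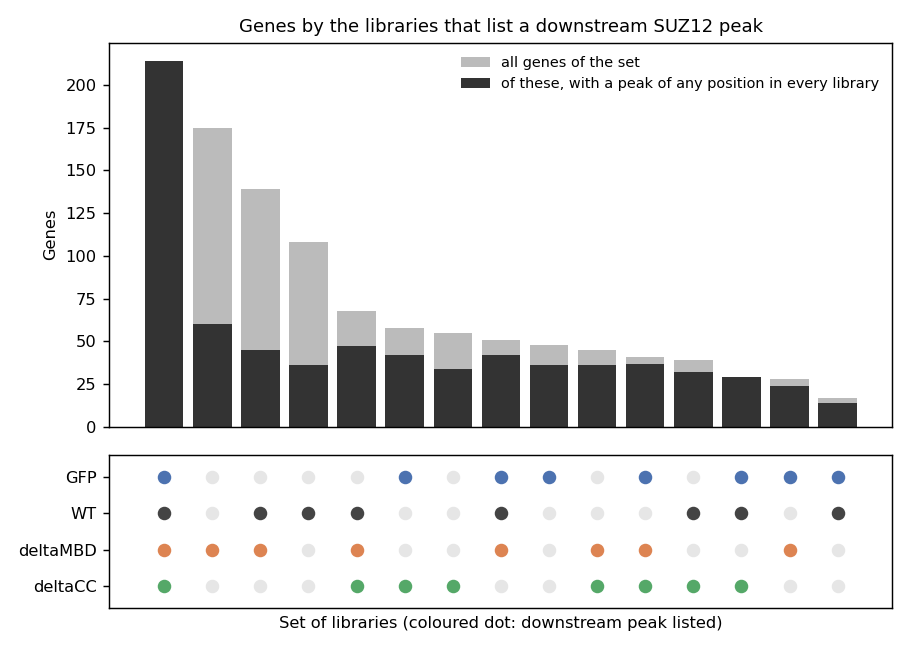
Number of genes (vertical axis) by the set of libraries that list a downstream peak at the gene (dots below), in grey, and the part of each set with a peak of any position in all 4 libraries, in black. The bars run from 214 genes with a downstream peak in every library to 17 in GFP and WT only.

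Transcription factor families held downstream peaks more often than listed genes at large. Over 16 families with 242 protein-coding genes, 168 genes were listed in any library, beside 1855 (8.47%) of all 21900 protein-coding symbols. Of the 168, 139 (82.7%, interval 76.2 to 88.1) had a downstream peak, against 57.6% of all listed genes. A downstream peak in every library was found for 46 (27.4%) of the 168, against 214 (11.1%) of 1935. These genes also had more peaks, 2.31 per listed gene and library against 1.80. They were more often listed in all 4 libraries (128 of 168 against 900 of 1935), whose part in these shares was not tested. Within single libraries, 64.5% of their listed genes had a downstream peak in GFP, against 46.2% of all listed genes. In WT it was 60.5% against 40.0%, in deltaMBD 60% against 45.4% and in deltaCC 66.45% against 45.0%. Counted over peaks, the difference was smaller: 42.1% of their GFP peaks lay downstream against 36.8% of all GFP peaks linked to 1 gene. In WT the shares were 39.5% and 32.1%, in deltaMBD 40.1% and 33.9%, and in deltaCC 41.3% and 34.5%. The interval of the families lay above the share of all such peaks in each library, by a small margin in GFP (37.0 to 47.4) and deltaMBD (34.6 to 45.8). It treats peaks of the same gene as independent, although the 356 GFP peaks were spread over 152 listed genes. These margins are therefore uncertain.

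Among the homeobox families, each of the 12 listed Nkx genes, the 6 Iroquois genes, the 9 Dlx and Msx genes and the 8 listed Pax genes had a downstream peak in at least 1 library. The POU family had one at 7 of 8 listed genes, and a further homeobox family at 2 of 4. Of the Nkx genes, 8 had one in every library. Nkx2-5, a regulator of heart development, had members at +2106, +3411 and +3975 bp (GFP), +1959 bp (WT), +2129 bp (deltaMBD) and +2181, +3690 and +4123 bp (deltaCC). The centre near +2 kb was common to the libraries, and those beyond +3 kb were listed in GFP and deltaCC. The related gene Nkx2-6 had members at +2812 bp (GFP), +2850 bp (WT), +2617, +3475 and +3946 bp (deltaMBD) and +3057 and +4096 bp (deltaCC). Nkx3-2, a factor of the skeleton, had +2046, +3546 and +4193 bp (GFP), +2060 bp (WT), +1937 and +4057 bp (deltaMBD) and +4253 bp (deltaCC). A centre near +2 kb was thus listed at Nkx3-2 in every library but deltaCC, and one beyond +4 kb in every library but WT.

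Irx1 had a member at +1312 bp (GFP), +1196 bp (WT), +1188 bp (deltaMBD) and +1193 bp (deltaCC). Irx5 had one at +1120, +1262, +1096 and +1273 bp, and Irx3 one at +1747, +1689, +1045 and +1560 bp. A second member was listed at +4118 bp of Irx5 in deltaCC and at +4167 bp of Irx3 in deltaMBD. In this family of neural and heart patterning factors, Irx6 went another way, with 3 members in WT, 2 in deltaMBD, 2 in deltaCC and none in GFP. A start-site peak was listed at Irx6 in every library, at +595 bp (GFP), +225 bp (WT), +220 bp (deltaMBD) and +331 bp (deltaCC). Of the 12 LIM homeobox genes, 11 were listed and 10 had a downstream peak. Lhx6, a factor of cortical interneurons, had members at +1776 and +4950 bp (GFP), +1693 and +4571 bp (WT), +4369 bp (deltaMBD) and +1853, +3772 and +4503 bp (deltaCC). The deltaMBD library also listed an Lhx6 centre at +950 bp, within 1 kb of the start site and so no member. Isl1, a factor of motor neurons and heart progenitors, had downstream centres in WT (+2327 and +4688 bp), deltaMBD (+2972 and +4112 bp) and deltaCC (+2639 and +3649 bp), and none in GFP. Every library listed start-site peaks at Isl1.

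Outside the homeobox genes, 9 of 10 listed Sox genes, 10 of 12 T-box genes, 17 of 22 forkhead genes, 12 of 14 neural bHLH genes and 5 of 5 Gata genes had a downstream peak in some library. Sox17, a factor of the endoderm, had a centre at +3607 bp (GFP), +3944 bp (WT), +3729 bp (deltaMBD) and +3661 bp (deltaCC). Foxb1, a forkhead factor of the brain, had +1213 bp (GFP), +1153 bp (WT), +1178 bp (deltaMBD) and +3318 bp (deltaCC). The deltaCC library also listed a Foxb1 centre at +895 bp, which is within 1 kb and no member. Neurog2, a proneural factor, had members at +1681 and +2654 bp (GFP), +2734 and +4312 bp (WT), +2020 and +4064 bp (deltaMBD) and +1873 and +2896 bp (deltaCC). Of the 17 Klf genes, Klf14 alone was listed (5.88%, against 8.47% of all protein-coding symbols), with a downstream peak at +1461 bp in deltaCC.

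Hox genes differed from the other families in their numbers by library. Of 39 genes 37 were listed and 23 had a downstream peak, which is 62.2% beside 88.5% of the 131 listed genes in the other transcription factor families. By the rule a peak linked to a second gene is no member, as at -2438 bp of Hoxb3 in GFP. The part of this in the lower share was not tested. By library, downstream peaks were listed at 19 Hox genes in GFP, 8 in WT, 8 in deltaMBD and 17 in deltaCC. Listed at any position were 34, 20, 23 and 35 Hox genes, so GFP and deltaCC were higher in both counts.

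Wnt, Fgf and Bmp ligands and Frizzled receptors, which carry and receive developmental signals, had 44 listed genes, of which 36 (81.8%, interval 67.3 to 91.8) had a downstream peak. Wnt10b had centres at +1412 bp (GFP), +1202 and +3684 bp (WT), +1378 bp (deltaMBD) and +1521, +3441, +4005 and +4870 bp (deltaCC). Bmp2 had +1311, +2887 and +3428 bp (GFP), +1050 bp (WT), +1757 bp (deltaMBD) and +1420 bp (deltaCC). At both genes a centre between +1 and +1.8 kb was present in every library. Of the Frizzled genes listed in each library, 1 of 3 had a downstream peak in GFP, 5 of 6 in WT, 6 of 6 in deltaMBD and 3 of 4 in deltaCC. Of all listed genes 46.2%, 40.0%, 45.4% and 45.0% had one, in the same order. The Frizzled counts are too small to compare the libraries. Fzd2 was the one with a member in all of them, at +1315 bp (GFP), +1095 bp (WT), +1325 and +2542 bp (deltaMBD) and +1659 bp (deltaCC).

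Transporters and ion channels had downstream peaks less often than those families. Of 90 listed genes in the solute carrier, potassium, calcium and sodium channel families, 43 (47.8%, interval 37.1 to 58.6) had a downstream peak in some library and 4 in every library. This interval includes the 57.6% of all listed genes. Of the 90 genes, 34 were listed in all 4 libraries, and the part of this was not tested. Over peaks, 18.5% of theirs lay downstream in GFP (interval 9.92 to 30.0), 24.6% in WT (17.4 to 33.1), 24.7% in deltaMBD (17.8 to 32.6) and 28.9% in deltaCC (19.5 to 39.9). The GFP interval lies below the 36.8% of all GFP peaks linked to 1 gene, and that of deltaMBD below its 33.9%, while those of WT and deltaCC include 32.1% and 34.5%. No solute carrier had a downstream peak in every library. In GFP 1 of 15 listed had one, beside 46.2% of all listed genes. In deltaMBD 15 of 34 had one, near the 45.4% of all listed genes. The solute carrier with one in GFP was Slc32a1, the vesicular transporter of GABA and glycine. Its members lay at +3622 and +4917 bp (GFP), +3678 bp (deltaMBD) and +2112, +3568 and +4829 bp (deltaCC). A start-site peak was listed in every library, at +80 bp (GFP), +623 bp (WT), +635 bp (deltaMBD) and -75 bp (deltaCC). In WT it was the only peak of the gene. Among the channels, Kcns1 had centres at +1261, +1885 and +2590 bp (GFP), +1119 and +2910 bp (WT), +1964 and +2754 bp (deltaMBD) and +1683, +2565 and +3192 bp (deltaCC). Kcnk12, a potassium channel gene as well, had centres at +1178 bp (GFP), +1123 and +2580 bp (WT), +1195 and +2448 bp (deltaMBD) and +1272 and +2643 bp (deltaCC). Cacnb4, a calcium channel subunit, had +1323 bp (GFP), +1450 and +2525 bp (WT), +1280 and +2447 bp (deltaMBD) and +1311 bp (deltaCC).

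Genes of the matrix and of adhesion, 39 listed, had a downstream peak in 21 cases (53.8%, interval 37.2 to 69.9). Over peaks, 35.1% of theirs lay downstream in GFP, 20.8% in WT, 23.2% in deltaMBD and 20.0% in deltaCC, and the deltaCC interval (10.03 to 33.7) alone lay below the share of all peaks linked to 1 gene. Col2a1, the collagen of cartilage, had a centre at +1175 bp (GFP), +1182 bp (WT), +1276 bp (deltaMBD) and +1153 bp (deltaCC), and a second in deltaMBD at +4422 bp. Of the axon guidance genes 15 of 23 had one (65.2%, interval 42.7 to 83.6). Epha7, an ephrin receptor, had centres at +1304 and +2266 bp (GFP), +1286 bp (WT), +1152 bp (deltaMBD) and +1211 bp (deltaCC). None of the 77 ribosomal protein genes and none of the 49 keratin genes was listed at any position, against 8.47% of all protein-coding symbols.

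To ask how far the downstream sites depend on the form of MBD3, each member was looked up in the other libraries. A partner was a peak linked within 5000 bp to the same gene and centred within 1000 bp of the member. The shares below are set beside those of all listed peaks of the same library. Of the 835 WT members, 375 (44.9%, interval 41.5 to 48.4) had a partner in GFP, against 43.5% of all WT peaks. In deltaMBD 612 (73.3%, 70.1 to 76.3) had one, against 77.2%, and in deltaCC 424 (50.8%, 47.3 to 54.2), against 52.0%. The GFP and deltaCC shares are near their background, and that in deltaMBD is below it.

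Read from the other side, 414 of the 674 GFP members had a partner in WT (61.4%, against 65.9% of all GFP peaks), 433 in deltaMBD (64.2% against 67.5%) and 467 in deltaCC (69.3% against 73.6%). From deltaMBD, 409 of 981 members had a partner in GFP (41.7% against 41.3%), 661 in WT (67.4% against 72.2%) and 475 in deltaCC (48.4% against 50.0%). From deltaCC, 455 of 744 had one in GFP (61.2% against 63.8%), 453 in WT (60.9% against 66.4%) and 466 in deltaMBD (62.6% against 68.0%). Downstream members were thus matched about as often as listed peaks in general or somewhat less, with the widest gap for deltaCC in WT.

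The position relative to the start site sorted the shares in a like way in each pair. Peaks centred within 1 kb of the start site were matched most often and upstream peaks least, with the downstream members between them in 12 of 12 ordered pairs. The intervals of the downstream and upstream shares overlapped for WT in deltaCC, deltaMBD in deltaCC and deltaCC in GFP. The gap to the start-site peaks varied: for GFP members in WT the shares were 61.4% (interval 57.6 to 65.1) downstream, 79.9% (77.0 to 82.6) at the start site and 41.7% (36.2 to 47.3) upstream. For WT members in GFP they were 44.9%, 45.1% and 36.0%, so here the intervals of downstream and start-site peaks overlapped. The same held for WT and deltaMBD members in deltaCC and for deltaMBD members in GFP. The 12 pairs share libraries and are not independent. Peaks were also densest within 1 kb of the start site and sparsest upstream, so the window holds more neighbours in the same order. A partner past 5000 bp on either side would not be listed. The part of both in the order of the shares was not tested.

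**Figure D4:**
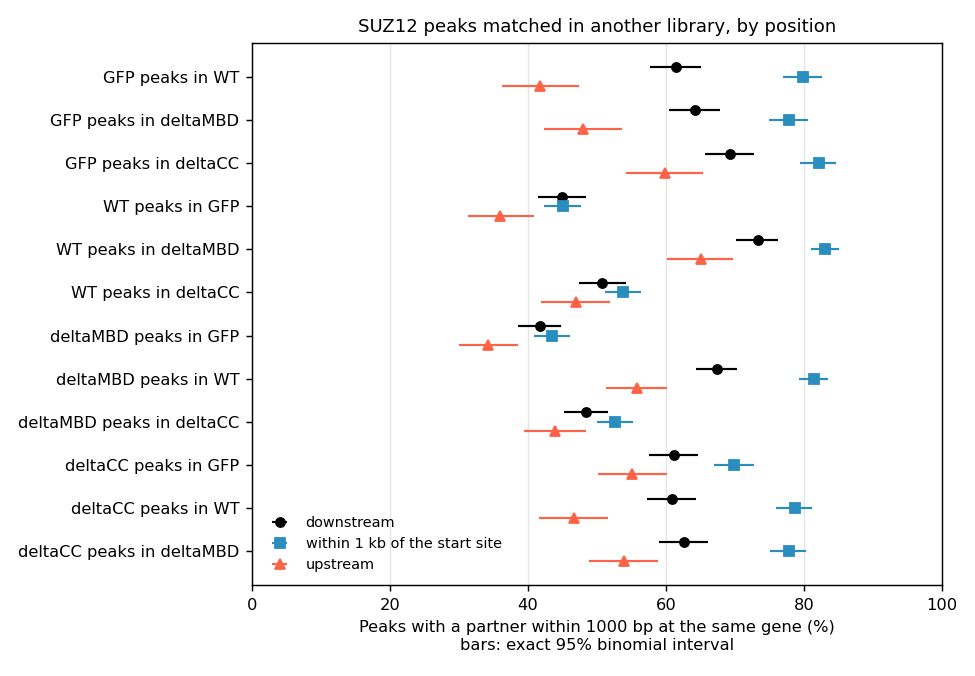
Share of peaks (horizontal axis, %) that had a partner within 1000 bp at the same gene in another library, for each ordered pair of libraries, by position of the peak; bars are exact 95% binomial intervals. Circles (downstream) lie between squares (start site) and triangles (upstream) in each pair, from 41.7% for deltaMBD in GFP to 73.3% for WT in deltaMBD.

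Of the GFP members, 290 (43.0%) had a partner in all 3 other libraries, against 48.4% of all GFP peaks, and 88 (13.1%) in none, against 11.0%. In deltaCC 275 (37.0%, against 41.8%) had one in all and 105 (14.1%, against 11.6%) in none. In WT these were 252 (30.2%, against 31.9%) and 126 (15.1%, against 13.8%). In deltaMBD they were 262 (26.7%, against 28.7%) and 184 (18.8%, against 16.8%). The members of each library were near its background, slightly below it for partners in all 3 and slightly above it for none. Matched partners lay a median of 279 to 363 bp away, over the 12 pairs.

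The members without a partner divided into those whose gene had no peak at all in the other library and those whose gene had peaks elsewhere. Of the 460 WT members unmatched in GFP, 225 (48.9%) were at genes not listed in GFP, 175 (38.0%) at genes with a start-site peak there, 53 at genes with a downstream peak there, beyond 1000 bp on either side, but none at the start site, and 7 at genes with upstream peaks alone. For the 411 unmatched in deltaCC the numbers were 166, 181, 60 and 4. For the 223 unmatched in deltaMBD they were 36, 125, 54 and 8. A missing gene was therefore the larger class for WT against GFP, and a start-site peak of the other library for WT against deltaMBD. Of the 260 GFP members unmatched in WT, 43 were at genes not listed in WT, 140 at genes with a WT start-site peak, 69 and 8 at the rest.

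Among genes with a downstream peak, 482 of the 665 of WT were listed in GFP at some position (72.5%), against 58.8% of all WT genes. In deltaMBD 632 (95.04%) were listed, against 90.0%, and in deltaCC 524 (78.8%), against 65.9%. In WT, 456 of the 486 GFP genes were listed (93.8% against 93.1%), 733 of the 761 deltaMBD genes (96.3% against 89.3%) and 518 of the 549 deltaCC genes (94.4% against 89.8%). Genes with a downstream peak had more peaks than listed genes at large, 2.11 against 1.65 per gene in WT and 2.30 against 1.86 in GFP, and the part of peak number in these shares was not tested. Where the other library listed the gene, 61.5% of WT members had a partner in GFP (interval 57.5 to 65.4), 63.4% in deltaCC (59.6 to 67.0) and 76.6% in deltaMBD (73.5 to 79.5). The order of the 3 libraries thus also held at genes that both lists contain, with overlapping intervals for GFP and deltaCC.

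Members of the outermost kb were matched less often than those of the innermost in each of the 12 pairs. Of GFP members up to +2000 bp, 77.9% had a WT partner (interval 73.1 to 82.1), and of those beyond +4000 bp, 30.2% (20.8 to 41.1). For GFP members in deltaCC the shares were 83.0% (78.7 to 86.8) and 50.0% (39.0 to 61.0). WT members in deltaMBD had 81.2% (77.2 to 84.8) in the first kb and between 63.3% and 65.7% in each of the next 3. The outermost kb holds 86 members in GFP, 79 in WT, 98 in deltaMBD and 97 in deltaCC, and a partner past +5000 bp would not be listed. Peaks were also denser toward the start site, as the profile shows, which gives members there more neighbours. Limited to members between +2 and +4 kb, the shares were 36.9% for WT in GFP, 42.5% for WT in deltaCC and 65.2% for WT in deltaMBD.

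A start-site peak at the same gene went with a lower match of the downstream one in 11 of the 12 pairs, GFP in deltaCC being the exception. In WT, 31.4% of members at genes with a WT start-site peak had a GFP partner (120 of 382, interval 26.8 to 36.3), against 56.3% of the others (255 of 453, 51.6 to 60.9). In deltaCC these shares were 38.0% (33.1 to 43.0) and 61.6% (56.9 to 66.1), and in deltaMBD 70.2% (65.3 to 74.7) and 75.9% (71.7 to 79.8), where the intervals overlap. The deltaMBD members gave 29.9% and 55.3% in GFP and 39.1% and 59.2% in deltaCC. For GFP members the shares were 52.7% and 68.4% in WT and 69.3% and 69.3% in deltaCC. Members of genes with a single listed peak were matched more often in 10 of the 12 pairs beyond the interval of the full set, for example 78.7% of those of GFP in WT and 60.8% of those of WT in GFP.

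At 68 genes, WT and deltaMBD each listed a downstream peak and GFP and deltaCC listed no peak of any kind, which is 6.10% of the 1115 genes. Counting peaks of any position, 368 of the 1935 listed genes (19.0%) were in WT and deltaMBD only. Of the 68, 67 had a symbol in the gene table. Kiss1r, the kisspeptin receptor, had the most, at +3007, +3580, +4134 and +4829 bp in WT and +3539 and +4662 bp in deltaMBD. Bbx, an HMG box gene, had +1426, +2079 and +2894 bp in WT and +3122 bp in deltaMBD. Jph4, a junctophilin of neurons, had +1360 and +2048 bp in WT and +2650 and +3320 bp in deltaMBD. None of the 3 had a peak centred within 1 kb of the start site or upstream of it. Lmo4 (a LIM-only cofactor), Nfil3 (a bZIP transcription factor) and Casz1 (a zinc finger factor) followed with 3 or 4 downstream peaks in the 2 libraries together. Lmo4 and Nfil3 also had start-site peaks in both.

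The opposite pattern, a downstream peak in GFP and deltaCC and no listing in WT or deltaMBD, was found at 12 genes (1.08%), beside 34 listed genes (1.76%) with peaks of any position in these 2 libraries only. Of the 12, 11 had a symbol in the gene table. Tbr1, a T-box factor of cortical neurons, had +1224, +2466, +3519 and +4493 bp in GFP and +1220 and +2612 bp in deltaCC. Hoxb3 had +1233, +2058, +2842 and +4312 bp in GFP and +3041 bp in deltaCC. Gm13275, Gm13276 and Gm13283 had 3 downstream peaks each over GFP and deltaCC. Their reads can be divided between near-identical copies, so these peaks are uncertain. Arhgef15, a guanine nucleotide exchange factor, had +3736 bp in GFP and +2604 bp in deltaCC, farther apart than the matching window. The lists of WT and deltaMBD are longer than those of GFP and deltaCC, and the part of list length in these counts was not tested.

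**Figure D5:**
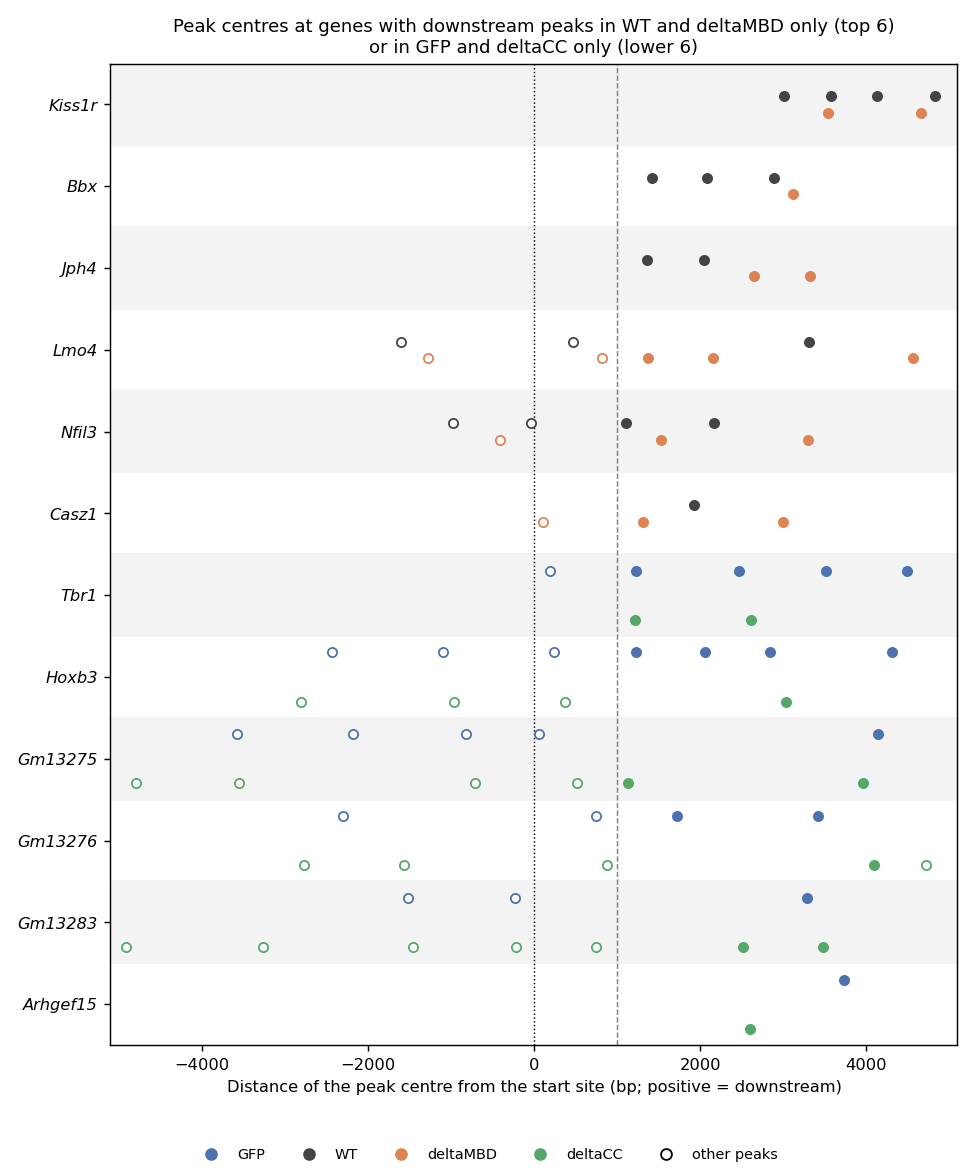
Peak centres by distance from the start site (horizontal axis, bp) at the genes with the most downstream peaks among those listed in WT and deltaMBD only (Kiss1r to Casz1) or in GFP and deltaCC only (Tbr1 to Arhgef15), in colour by library. Filled circles are downstream members and open circles other peaks; the pairs of rows without points are the libraries that list no peak.

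Of the genes with a downstream peak, 3 were listed in GFP alone, 23 in WT alone, 20 in deltaMBD alone and 8 in deltaCC alone. Over all listed genes the same counts were 10 (0.517%), 133 (6.87%), 130 (6.72%) and 47 (2.43%). In GFP one of them was Myc, the proto-oncogene transcription factor, at +1506 bp. In WT they included Epor, the erythropoietin receptor, at +1090 and +1804 bp, and Foxp4, a forkhead factor, at +1204 and +2129 bp. The deltaMBD library listed Igf2bp3, an RNA-binding protein of fetal tissue, at +1107 and +1754 bp, and Phospho1, a phosphatase of mineralizing cells, at +4292 and +4941 bp. The deltaCC library listed Gli2, a transcription factor of the hedgehog pathway, at +1098 and +1342 bp, and Adcyap1, the gene of the neuropeptide PACAP, at +2628 and +3284 bp. Apart from Phospho1, which also had a deltaMBD peak at -757 bp, these genes had no other listed peak.

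With 1 library per culture, no difference between libraries has a replicate check, and none is tested here. A smaller matching window lowered the shares by over 1.5 times in several pairs: with 500 bp, 38.6% of GFP members were matched in WT, 29.5% of WT members in GFP and 25.9% of deltaMBD members in GFP.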

How the data were processed

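Peaks were called with MACS2 on mm9 from reads converted with bcl2fastq 2.18.0.12, per the submitters' processing notes. Aligner, peak settings and depth are not given in these sources. Per the file headers, the authors linked each library's peaks to genes with GREAT 3.0.0 (nearest genes on both sides, 5000 bp at most, curated domains added). The deposited value is a signed distance in bp.

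Lines of a repeated symbol were pooled. Zfp319, on lines with different start sites, gave 4 members that also lay upstream of its other start site. Members, families and tests were chosen with earlier results of these data known. Named genes are those with the most downstream peaks in all, per set of libraries or per family (ties alphabetical), those with 1 peak per library and the smallest span, and those at the limits. Of 1115 genes, 1074 matched a symbol of the RefSeq table (GRCm38.p6), 24 a synonym and 17 neither. A start-site sequence was found for 70.1%, under 80%, so a comparison of CG content over the genes is void. The exclusion of peaks linked to a second gene and the rule for matching were tested on simulated data with 1 member per gene. The distance limits of membership and the intervals were not tested. Values were computed in Python 3.11.15 (NumPy 2.4.6), intervals with SciPy 1.17.1 and plots with matplotlib 3.10.9. A few named genes are not reported here. No p-value was computed, since each group has 1 library.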

Additional observations from a re-analysis of the deposited data

How the results depend on the processing

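No paired analysis was possible because each group has 1 library without a replicate number, and leaving out a replicate was not possible for the same reason. A share or median is called moved where it left its 95% interval, and a number where it changed by over 1.5 times. Leaving out Hox genes moved none of 24 values in this sense (GFP members fell from 674 to 640), and adding peaks linked to several genes none of 21 (GFP members rose to 708). The limits of the range did move most values, since by construction they add or remove members. From over +500 bp on, 7 values moved and 2 did not, the numbers of members in GFP and deltaCC. From over +2000 bp on, all 9 moved. With members from over +500 bp on, they numbered 983 in GFP, 1328 in WT, 1508 in deltaMBD and 1101 in deltaCC, and 401 genes had one in every library. The downstream share was then 53.6% in GFP, 51.1% in WT, 52.0% (52.05) in deltaMBD and 51.0% in deltaCC. From over +2000 bp, they numbered 326, 404, 471 and 383 in GFP, WT, deltaMBD and deltaCC, or 17.8%, 15.5%, 16.3% and 17.7%, and 70 genes had one in every library.

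Matched shares are given in the order GFP in WT, in deltaMBD and in deltaCC, WT in GFP, in deltaMBD and in deltaCC, deltaMBD in GFP, in WT and in deltaCC, and deltaCC in GFP, in WT and in deltaMBD. With a window of 500 bp they were 38.6, 39.3, 49.7, 29.5, 52.3, 32.9, 25.9, 44.5 (44.55), 32.7, 43.1 (43.15), 37.2 and 42.9%. With 2000 bp they were 78.6, 82.3, 86.9, 59.6, 86.6, 69.0, 59.1, 86.8 (86.75), 67.9, 80.2, 78.5 and 81.5% (81.45). Where the partner had to be downstream itself, they were 48.5, 50.4 (50.45), 55.2, 37.2 (37.25), 61.4, 40.8, 33.4, 53.6, 38.0, 50.0, 47.7 and 51.5%. For members between +2 and +4 kb they were 48.8 (48.75), 52.1, 56.2 (56.25), 36.9, 65.2, 42.5, not moved for deltaMBD in GFP, 57.1, 44.0, 54.5 (54.55), 50.7 and 55.6%. At genes with 1 listed peak, the shares that moved were 78.7, 79.4 and 77.9% from GFP, 60.8% in GFP and 63.4% in deltaCC from WT, 56.8, 76.7 and 59.1% from deltaMBD, and 77.0% (77.05) in WT and 71.3% in deltaMBD from deltaCC. Depth is unknown, so a gene without a listed peak was not shown to lack SUZ12.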
